A study of Mus musculus with 8 samples.

Results

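The 46 genes described here belong to the interferon response and to antigen presentation on major histocompatibility complex (MHC) class I, and they were read from a table of 54752 gene IDs by matching the symbols of a fixed list. They comprise 5 signalling and transcription factors, 4 nucleic acid sensors, 18 antiviral effectors, 3 genes of the PARP and DTX3L families, 6 interferon-inducible GTPases and 10 class I presentation genes. Every one of the 46 symbols matched an ID, and 40 had enough reads to be tested. The study asked how the arginine methyltransferase Carm1 acts in the maturing mouse heart, and its design compared 4 groups of 2 libraries each: KO at 3w, control at 3w, KO at 1w and control at 1w, where 3w and 1w are the ages in the labels, taken as weeks. All mice carried floxed Carm1 alleles (Carm1fl/fl) and had been injected with an AAV9 virus, which delivered Cre recombinase in KO and GFP in control. The RNA came from cardiomyocytes obtained with a Langendorff perfusion system. The hearts were mosaic, with infected beside uninfected cells, and no sorting of infected cells, promoter of the Cre or sex of the mice is stated. Cre was never given to mice lacking the floxed alleles, so its own effect and that of losing Carm1 cannot be told apart. KO and control had both been exposed to virus. The labels give postnatal days 3 and 4 for the injections of the 3w pairs and days 1 and 2 for the 1w pairs, in KO and control alike, without saying outright whether each library is a different animal. The p-values therefore measure only how far libraries of 1 group differ, which may be technical variation.

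In the interferon response, foreign or misplaced nucleic acid is detected by RNA and DNA sensors, interferons are secreted, and their receptors act through JAK kinases on STAT and IRF transcription factors. Complexes that hold STAT2 and IRF9 bind the interferon-stimulated response element, and STAT dimers bind the gamma-activated site, in the promoters of antiviral effector genes, of GTPases that attack intracellular pathogens, and of genes that load peptides on MHC class I for display to CD8 T cells. Unstimulated cells, cardiomyocytes included, generally express the effector genes at low levels.

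Carm1 itself, the targeted gene, had 17.3 and 17.8 CPM in KO and 39.9 and 39.3 CPM in control at 3w, where CPM is the count relative to a library size scaled by TMM. At 1w, Carm1 had 22.2 and 22.4 CPM in KO and 40.5 and 39.1 CPM in control. The remaining signal includes uninfected cells, and reads outside a deleted part would also be counted. Library totals lay between 20818285 and 53671626 counts. Mitochondrially encoded transcripts took 40.7 to 47.8% of the counts. Of the marker lists, the cardiomyocyte markers had the highest summed level in every library, with 62916 to 63741 summed CPM in KO at 3w, 77609 to 81722 CPM in control at 3w, 37509 to 37829 CPM in KO at 1w and 39996 to 40959 CPM in control at 1w. The cardiomyocyte genes Actc1 and Pln were nevertheless listed at 0 in all 8 libraries, so a 0 in this table need not mean that a gene was silent. Transcripts of 4 genes on the Y chromosome (Uty, Kdm5d, Ddx3y and Eif2s3y) summed to 3 and 2 counts in KO and 6765 and 4814 counts in control at 3w. At 1w the sums were 5025 and 4282 counts in KO and 1 and 0 counts in control. Differences between KO and control at one age, between ages in one genotype, and between the KO effects at both ages therefore coincide with presence of Y-linked transcripts, and the causes cannot be told apart. The KO effect averaged over both ages has 1 group with and 1 without these transcripts on each side. By the labels, the injections also came on different postnatal days at 3w and at 1w. Comparisons between the ages, within 1 genotype or of the KO effects, therefore coincide with the day of injection too.

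Across both ages, most of the interferon and class I genes were modestly higher in KO, and 1 gene, the GTPase gene Iigp1, was clearly lower. Of the 40 tested members, 31 were called higher in KO (77.5%) and 1 was called lower, at an adjusted p under 0.05 by the quasi-likelihood F-test of edgeR, Benjamini-Hochberg adjusted over all 14665 genes tested. Over all genes tested, 27.5% were called higher and 25.3% lower in the same comparison. The median log2 fold change of the tested members was 0.42, against 0.016 over all genes. Only 2 of the called members, Oas2 and Psmb8, were at least 2-fold higher in this average. With any 1 library left out, 26 to 31 of 42 to 43 members tested were called higher. In some of these fits they include members without a call in the main fit. Of the main fit's 32 calls, with Iigp1 included, 26 to 29 were kept. The DESeq2 Wald test called 20 of 43 members higher (46.5%), against 17.1% of all genes. The calls of Ifit1, Ifi44, Ifi27, Ifi35, Rtp4, Parp9, Dtx3l, Gbp2, H2-D1, Tapbp and Psmb8 over both ages were lost without 1 or more of the libraries, and that of Gbp7 with DESeq2 alone.

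More members passed the test at 3w than at 1w. At 3w, 29 of 40 tested members were called higher in KO (72.5%), against 24.4% of all genes, and Iigp1 alone was called lower, against 24.8% of all genes. The members' median log2 fold change at 3w was 0.66, against 0.0061 over all genes, and 7 of the called members were at least 2-fold higher. At 1w, 10 members were called higher (25%), which is close to the 23% of all genes called higher, and Iigp1 was the member called lower, against 20% of all genes. The median at 1w was 0.21, against 0.022 over all genes. Of the members called higher in KO, 9 were called at both ages, 20 at 3w without a call at 1w, and 1, the peptide transporter gene Tap2, at 1w without a call at 3w. The 3w calls of Stat2, Ifi44, Oasl2, Rtp4, Eif2ak2, Gbp7, H2-D1 and Nlrc5 were lost without 1 or more of the 3w libraries, and that of Ifit3 with DESeq2 alone. At 1w, the calls of Stat2, Oas2, Oasl2, Rsad2, H2-K1 and H2-D1 were lost without 1 or more libraries, and that of Tap2 with DESeq2 alone. Set out by library, both KO libraries lay above both control libraries for 34 of the 40 tested members at 3w, against 36.6% of all genes, and for 23 at 1w, against 37.8% of all genes. All 4 KO libraries lay above all 4 control libraries for 9 of the tested members, against 5.48% of all genes, namely Stat2, Irf9, Ddx58, Ifih1, Eif2ak2, Sp100, Gbp7, H2-K1 and Psmb9.

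**Figure D1:**
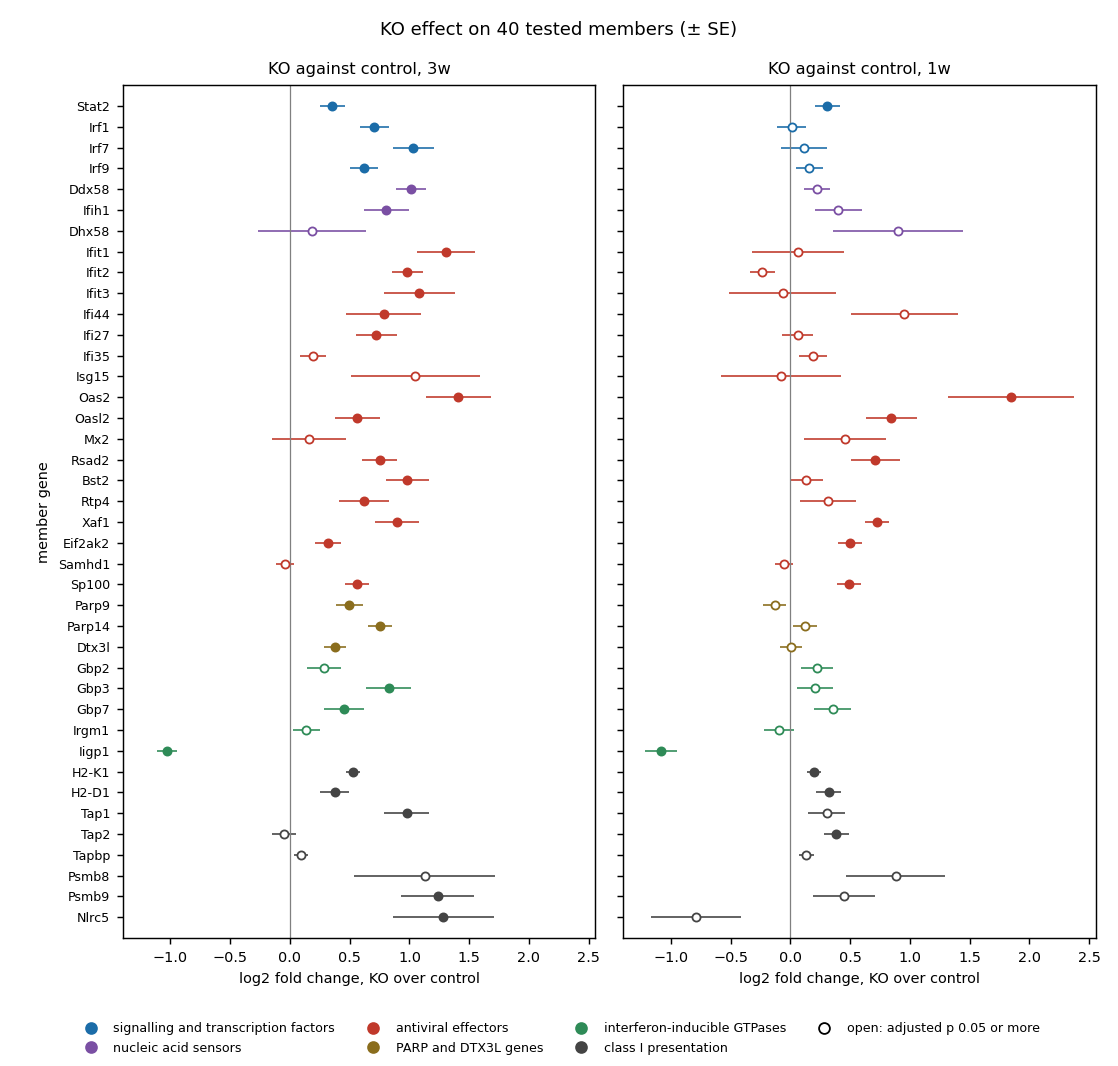
Log2 fold change of KO over control with its SE for each of the 40 tested members, at 3w (left) and 1w (right), coloured by role group; filled points have an adjusted p under 0.05. At 3w most points are filled and lie to the right of 0, at 1w 10 filled points lie to the right, and Iigp1 lies far to the left in both panels.

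The members were expressed at low levels in these cells. Mean CPM over the 8 libraries lay between 0.279 and 28.5 among the tested members, with 36 of the 40 under 10 CPM and 10 under 1 CPM. Per kilobase of annotated exon, H2-D1 (11.04 CPM per kb), H2-K1 (8.93 CPM per kb) and Tapbp (7.68 CPM per kb) had the highest mean levels, ahead of Bst2 (3.64 CPM per kb) and Ifi35 (3.56 CPM per kb). B2m, Igtp and Psmb10 were listed at 0 in all 8 libraries. B2m encodes the light chain of every class I molecule and is used by nearly all cells, so its 0 gives no measure of its level. Usp18 (41 counts over the 8 libraries), Zbp1 (43 counts) and Mx1 (36 counts) had too few reads to pass the filter and were not tested in the main fit.

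**Figure D2:**
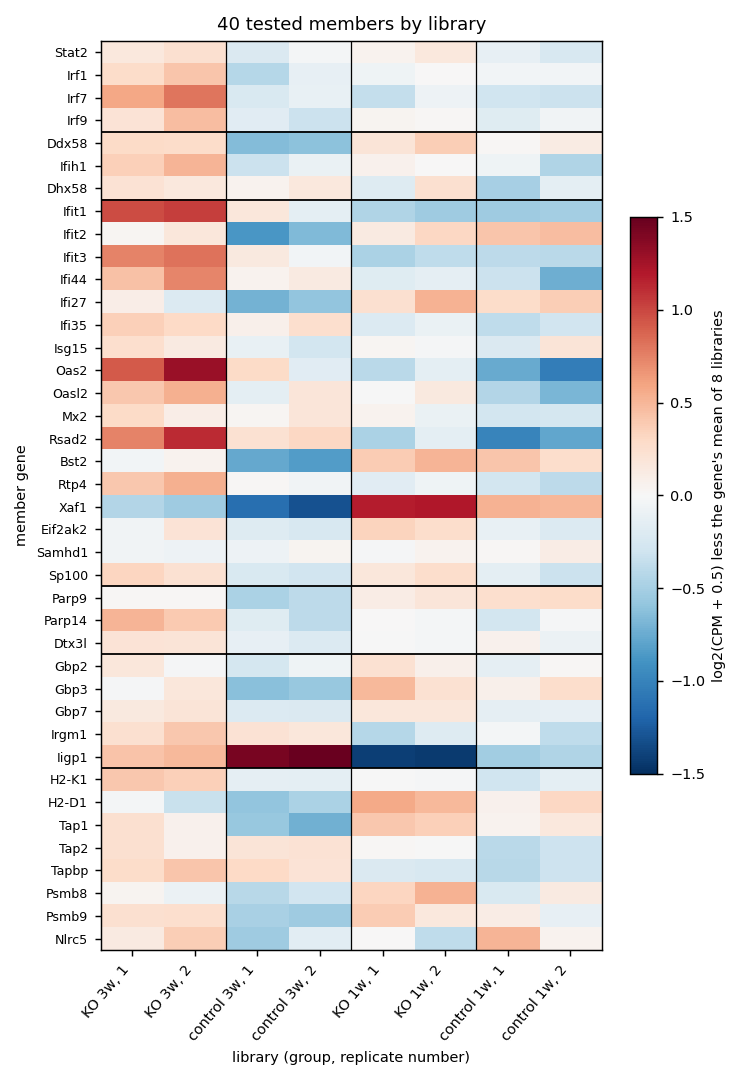
Level of the 40 tested members in each of the 8 libraries, as log2(CPM + 0.5) less the gene's mean over the 8 libraries, ordered by role group from the signalling factors to the class I genes; values beyond ±1.5 take the end colours. The KO libraries at 3w are above the gene's mean for most members, the control libraries at 3w are below it for many, and Iigp1 shows the opposite order.

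Promoter windows were available from RefSeq (GRCm38.p6) for 33 of the 46 members, each covering 250 bases before to 50 after a gene's start. Both strands were searched for the core of the interferon-stimulated response element, GAAANNGAAA (read on the other strand as TTTCNNTTTC), and for the gamma-activated site TTCNNNGAA, which reads alike on both strands. A member was counted if any of its windows held a match, while the shares of all promoters count single windows. The core was present in 15 of the 33 members (45.5%), against 3.44% of all 32851 promoters in the table. The gamma-activated site was present in 9 of 33 (27.3%), against 8.3% of all promoters. Presence of the core did not separate members by their call: of the 30 tested members with a window, 10 of the 13 with the core and 13 of the 17 without it were called higher in KO at 3w. The stretches around the matches of 7 members are shown, so that the spacing of the repeats can be seen beside the KO effects. Each is printed on the strand of the gene, 5′ to 3′, and capitals mark the core, or the gamma-activated site in Irf1. They were chosen after their values were seen. The positions are chr19:34640760-34640838 (+ strand) for Ifit1, chr19:34583348-34583441 (+) for Ifit3, chr12:26456538-26456597 (-) for Rsad2, chr8:71537562-71537627 (-) for Bst2, chr3:142559974-142560039 (+) for Gbp3, chr11:48871421-48871475 (-) for Irgm1 and chr11:53769899-53769957 (+) for Irf1.
Ifit1: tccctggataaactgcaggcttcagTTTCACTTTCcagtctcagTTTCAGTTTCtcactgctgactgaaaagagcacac
Ifit3: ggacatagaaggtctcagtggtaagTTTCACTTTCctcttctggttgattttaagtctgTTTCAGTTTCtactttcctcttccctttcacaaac
Rsad2: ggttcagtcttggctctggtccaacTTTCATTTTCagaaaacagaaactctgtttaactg
Bst2: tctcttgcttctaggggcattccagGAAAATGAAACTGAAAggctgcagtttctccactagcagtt
Gbp3: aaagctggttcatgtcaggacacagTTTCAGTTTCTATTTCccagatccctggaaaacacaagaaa
Irgm1: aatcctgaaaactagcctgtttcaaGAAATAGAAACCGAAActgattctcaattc
Irf1: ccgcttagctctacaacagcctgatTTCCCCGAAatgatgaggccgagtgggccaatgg
Ifit1 and Ifit3, neighbours on the same chromosome, each hold 2 separate cores on the strand opposite to the gene. Bst2, Gbp3 and Irgm1 each hold 2 cores that overlap by their middle GAAA (TTTC on the other strand), and in Bst2 a gamma-activated site overlaps the first of them. Irgm1, with 2 cores, was not called in KO at either age, whereas Bst2 and Gbp3 were called higher at 3w.

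Among the signalling and transcription factors, all 4 tested rose in KO over both ages and at 3w, against 27.5% and 24.4% of all genes. At 1w, 1 of the 4, Stat2, rose (25%, near the 23% of all genes). Irf7, a transcription factor that amplifies interferon production, stood at 3.81 and 4.53 CPM in KO and 1.96 and 2.16 CPM in control at 3w. At 1w, Irf7 stood at 1.75 and 2.22 CPM in KO and 1.85 and 1.804 CPM in control. Its KO libraries at 3w lay above all other libraries, and at 1w the groups overlapped. The log2 fold change was 1.03 ± 0.17 at 3w (± SE; adjusted p = 6.45e-07), while at 1w it was 0.11 ± 0.19 (adjusted p = 0.67). Irf1, which drives many interferon-gamma targets, was measured at 6.64 and 7.36 CPM in KO and 3.86 and 4.88 CPM in control at 3w. For Irf1 at 1w, the values were 5.12 and 5.399 CPM in KO and 5.205 and 5.22 CPM in control. KO and control overlapped at 1w and were separate at 3w, where the log2 fold change was 0.71 ± 0.12 (adjusted p = 1.76e-06). Irf9, the DNA-binding subunit of the complex with STAT2, had 7.17 and 8.72 CPM in KO and 5.41 and 4.84 CPM in control at 3w. At 1w, Irf9 had 6.38 and 6.27 CPM in KO and 5.37 and 5.904 CPM in control. The groups did not overlap at either age, and the effect was 0.62 ± 0.11 on the log2 scale at 3w (adjusted p = 5.46e-06), compared with 0.16 ± 0.11 at 1w (adjusted p = 0.279). Stat2, its partner in the complex, stood at 8.403 and 8.89 CPM in KO and 6.37 and 7.31 CPM in control at 3w. At 1w, Stat2 stood at 7.73 and 8.36 CPM in KO and 6.84 and 6.23 CPM in control. Every KO library lay above every control library for Stat2, with log2 fold changes of 0.35 ± 0.10 at 3w and 0.31 ± 0.10 at 1w. In the average of both ages Stat2 stood at 0.33 ± 0.073 (adjusted p = 0.000109), a call that held under every alternative tried, while its calls at each age were lost without some of the libraries.

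**Figure D3:**
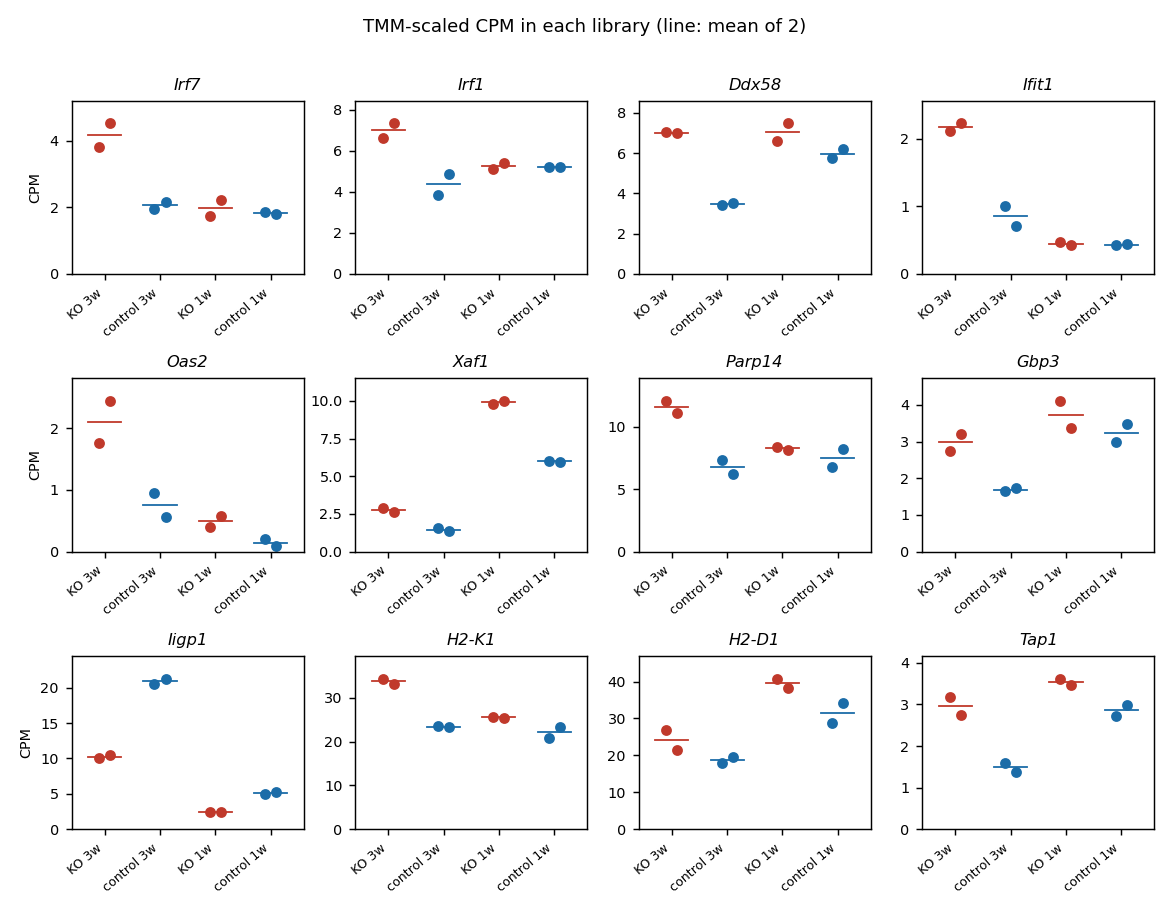
TMM-scaled CPM of 12 members in every library (points) with the mean of each pair (lines), for KO (red) and control (blue), at 3w and then 1w. Irf7, Ifit1 and Oas2 are highest in KO at 3w, Ddx58, Gbp3 and Tap1 are lowest in control at 3w, Xaf1 is higher at 1w than at 3w in both genotypes, and Iigp1 is lower in KO at both ages.

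Of the 3 tested nucleic acid sensors, the cytosolic RNA helicases Ddx58 (RIG-I) and Ifih1 (MDA5) rose in KO over both ages and at 3w. These are 66.7% of the sensors tested, against 27.5% of all genes over both ages and 24.4% at 3w. None of the 3 was called at 1w, where 23% of all genes were called higher. Ddx58 was measured at 7.03 and 7.01 CPM in KO and 3.43 and 3.53 CPM in control at 3w. For Ddx58 at 1w, the values were 6.58 and 7.49 CPM in KO and 5.75 and 6.204 CPM in control. Control at 3w was the low group, and the other 3 groups lay close together, with KO above control at 1w as well. The log2 fold change was 1.01 ± 0.12 at 3w (adjusted p = 2.74e-10), compared with 0.22 ± 0.11 at 1w (adjusted p = 0.093). Ifih1 had 2.86 and 3.24 CPM in KO and 1.597 and 1.94 CPM in control at 3w. At 1w, Ifih1 had 2.25 and 2.14 CPM in KO and 2.01 and 1.42 CPM in control. All KO libraries lay above all control libraries, with 0.81 ± 0.19 at 3w (adjusted p = 0.000301). Dhx58, the LGP2 helicase that modulates the other sensors, had only 91 reads in all. It stood at 0.459 and 0.418 CPM in KO and 0.358 and 0.424 CPM in control at 3w. At 1w, Dhx58 stood at 0.225 and 0.476 CPM in KO and 0.0839 and 0.246 CPM in control. Its groups overlapped, and it was not called in any comparison with control (log2 0.54 ± 0.36 over both ages, adjusted p = 0.2).

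Of the 17 tested antiviral effectors, 13 rose over both ages and at 3w (76.5%, against 27.5% and 24.4% of all genes). At 1w, 6 rose (35.3%, against 23% of all genes). None fell in these comparisons, with a median log2 fold change of 0.75 at 3w and 0.31 at 1w. Oas2, an oligoadenylate synthetase whose product activates RNase L, had the largest fold change of the tested members in the average of both ages. It was measured at 1.77 and 2.44 CPM in KO and 0.954 and 0.565 CPM in control at 3w. For Oas2 at 1w, the values were 0.404 and 0.582 CPM in KO and 0.2099 and 0.08199 CPM in control. KO and control did not overlap at either age, and the log2 fold changes were 1.41 ± 0.27 at 3w and 1.85 ± 0.53 at 1w (adjusted p = 1.29e-05 at the later age, 0.00322 at the earlier). The 1w value rests on 18 and 22 reads in KO, against 5 and 3 reads in control, and its call was lost without control replicate 2. Xaf1, an interferon-induced inhibitor of XIAP, had 2.86 and 2.65 CPM in KO and 1.57 and 1.34 CPM in control at 3w. At 1w, Xaf1 had 9.82 and 10.01 CPM in KO and 6.04 and 5.96 CPM in control. KO lay above control at both ages, by 0.90 ± 0.18 at 3w and 0.72 ± 0.10 at 1w, and both calls held under every alternative tried. Ifi44, an interferon-induced gene, stood at 0.989 and 1.32 CPM in KO and 0.644 and 0.707 CPM in control at 3w. At 1w, Ifi44 stood at 0.472 and 0.503 CPM in KO and 0.378 and 0.164 CPM in control. Its KO libraries lay above the control libraries at each age. Its log2 fold change over both ages was 0.87 ± 0.27 (adjusted p = 0.00573), a call lost without control replicate 2 of 1w and with DESeq2. Sp100, a nuclear body protein that restricts DNA viruses, was measured at 10.3 and 9.55 CPM in KO and 6.84 and 6.57 CPM in control at 3w. For Sp100 at 1w, the values were 9.21 and 9.79 CPM in KO and 7.26 and 6.395 CPM in control. Its KO libraries all lay above its control libraries, by 0.56 ± 0.10 at 3w and 0.49 ± 0.098 at 1w, and these calls held under every alternative. Samhd1, a dNTP hydrolase and the effector with the most reads, had 15.4 and 15.1 CPM in KO and 15.1 and 16.5 CPM in control at 3w. At 1w, Samhd1 had 15.8 and 16.7 CPM in KO and 16.2 and 17.3 CPM in control. Its groups overlapped at both ages, and it was not called (log2 -0.047 ± 0.053 over both ages, adjusted p = 0.471).

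The other effectors differed in the ages at which they were called. Ifit1, Ifit2 and Ifit3, which bind foreign RNA, and Bst2 (tetherin) and Ifi27 were called higher at 3w and not at 1w. Ifit1 stood at 2.12 and 2.23 CPM in KO and 1.001 and 0.707 CPM in control at 3w. At 1w, Ifit1 stood at 0.472 and 0.423 CPM in KO and 0.4197 and 0.437 CPM in control. KO at 3w stood apart from all other libraries. Ifit2 was measured at 5.896 and 6.55 CPM in KO and 2.93 and 3.46 CPM in control at 3w. For Ifit2 at 1w, the values were 6.403 and 7.28 CPM in KO and 7.85 and 8.14 CPM in control. Control at 3w was the low group and KO lay below control at 1w. Bst2 had 3.001 and 3.24 CPM in KO and 1.62 and 1.52 CPM in control at 3w. At 1w, Bst2 had 4.201 and 4.63 CPM in KO and 4.28 and 3.83 CPM in control. Control at 3w was again lowest, and the groups overlapped at 1w. The antiviral effectors called higher at both ages were Oas2, Oasl2, Rsad2 (viperin), Xaf1, Eif2ak2 (the RNA-activated kinase PKR) and Sp100. Rsad2 stood at 5.08 and 6.73 CPM in KO and 3.41 and 3.64 CPM in control at 3w. At 1w, Rsad2 stood at 1.91 and 2.51 CPM in KO and 1.18 and 1.45 CPM in control. KO lay above control at each age. Rtp4 and Ifi44 were called at 3w (0.62 ± 0.21 and 0.79 ± 0.31 on the log2 scale) and not at 1w (0.31 ± 0.24 and 0.95 ± 0.45). For Rtp4, Ifi44 and Ifit3, the KO effects did not pass the test of a difference between ages. Ifi35 was called in the average of both ages only, at 0.19 ± 0.080 (adjusted p = 0.0412), a call that most alternatives did not keep. Isg15 and Mx2 were called in no comparison with control. Isg15 had between 4 and 14 reads in a library.

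The genes Parp14, Parp9 and Dtx3l, whose products act in ADP-ribosylation and ubiquitination downstream of interferon, rose at 3w in all 3 cases and at 1w in none. Over all genes, 24.4% were called higher at 3w and 23% at 1w. Parp14 was measured at 12.1 and 11.1 CPM in KO and 7.32 and 6.25 CPM in control at 3w. For Parp14 at 1w, the values were 8.402 and 8.15 CPM in KO and 6.7995 and 8.23 CPM in control. KO at 3w was above all other libraries and the groups overlapped at 1w, with a log2 fold change of 0.76 ± 0.10 at 3w (adjusted p = 2.48e-09), compared with 0.12 ± 0.10 at 1w (adjusted p = 0.363). Parp9 had 6.88 and 6.83 CPM in KO and 4.72 and 5.05 CPM in control at 3w. At 1w, Parp9 had 7.37 and 7.75 CPM in KO and 8.18 and 8.34 CPM in control. Its control libraries were low at 3w, with an effect of 0.50 ± 0.11, whereas both KO libraries lay below control at 1w, at -0.13 ± 0.097 without a call. Dtx3l stood at 11.2 and 11.1 CPM in KO and 8.85 and 8.34 CPM in control at 3w. At 1w, Dtx3l stood at 9.62 and 9.502 CPM in KO and 10.1 and 9.101 CPM in control. Its groups overlapped at 1w, and the effect at 3w was 0.37 ± 0.092. Parp9 and Dtx3l lie head to head and share 458 exon bases (9.4% of Parp9 and 8% of Dtx3l), so some of their reads may not be separable.

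Of the 5 tested interferon-inducible GTPases, 3 were called higher over both ages (60%, against 27.5% of all genes). At 3w, 2 were called higher (40%, against 24.4%), and none was at 1w (against 23%). In each comparison 1 was called lower, against 25.3% of all genes over both ages, 24.8% at 3w and 20% at 1w. Iigp1 (Irga6), an immunity-related GTPase that disrupts pathogen vacuoles, was measured at 10.03 and 10.4 CPM in KO and 20.5 and 21.3 CPM in control at 3w. For Iigp1 at 1w, the values were 2.43 and 2.38 CPM in KO and 4.95 and 5.22 CPM in control. KO was below control in every library of the same age, by -1.03 ± 0.081 at 3w (adjusted p = 3.25e-17), compared with -1.09 ± 0.13 at 1w (adjusted p = 3.64e-10). These 2 calls held under every alternative tried, the KO effects did not pass the test of a difference between ages (0.058 ± 0.15, adjusted p = 0.815), and Y-linked transcripts were on opposite sides at the 2 ages. Gbp3, a guanylate-binding protein, had 2.75 and 3.21 CPM in KO and 1.65 and 1.73 CPM in control at 3w. At 1w, Gbp3 had 4.11 and 3.36 CPM in KO and 2.98 and 3.47 CPM in control. Control at 3w was lowest, the groups overlapped at 1w, and the effect at 3w was 0.83 ± 0.19 (adjusted p = 0.00016). Gbp7 stood at 3.28 and 3.42 CPM in KO and 2.46 and 2.44 CPM in control at 3w. At 1w, Gbp7 stood at 3.35 and 3.33 CPM in KO and 2.602 and 2.62 CPM in control. Every KO library lay above every control library, with an effect of 0.40 ± 0.11 over both ages (adjusted p = 0.00205). Its call at 3w was lost without any 1 of the 3w libraries. Irgm1, a regulator of the other immunity-related GTPases, was measured at 6.85 and 7.74 CPM in KO and 6.75 and 6.501 CPM in control at 3w. For Irgm1 at 1w, the values were 4.13 and 4.95 CPM in KO and 5.58 and 4.29 CPM in control. The groups overlapped at 1w, and neither age was called (adjusted p = 0.338 at 3w). Gbp2 was called over both ages only, at 0.25 ± 0.099, a call lost with DESeq2 and without replicate 1 of any group. The Gbp genes are close paralogs, and so are the Ifit genes, so reads shared between copies may have been lost or split in the authors' counting.

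In the class I presentation group, 6 of 8 tested members rose over both ages (75%, against 27.5% of all genes). At 3w, 5 rose (62.5%, against 24.4%) and at 1w 3 rose (37.5%, against 23%), and none fell in these comparisons. H2-K1, a classical class I heavy chain, had 34.4 and 33.2 CPM in KO and 23.5 and 23.4 CPM in control at 3w. At 1w, H2-K1 had 25.7 and 25.5 CPM in KO and 20.9 and 23.3 CPM in control. All KO libraries lay above all control libraries, with log2 fold changes of 0.53 ± 0.060 at 3w (adjusted p = 2.33e-11), compared with 0.20 ± 0.061 at 1w (adjusted p = 0.00646). The 1w call of H2-K1 was lost with DESeq2 and without replicate 1 of either group at 1w. H2-D1, the other classical heavy chain in the list, stood at 26.8 and 21.5 CPM in KO and 17.95 and 19.5 CPM in control at 3w. At 1w, H2-D1 stood at 40.8 and 38.3 CPM in KO and 28.7 and 34.1 CPM in control. KO lay above control at each age and both genotypes were higher at 1w, with an effect of 0.38 ± 0.12 at 3w (adjusted p = 0.0332), compared with 0.32 ± 0.10 at 1w (adjusted p = 0.035). Both calls were lost without some libraries and with the replicate number as a block (adjusted p = 0.0735 at 3w and 0.0806 at 1w). H2-K1 and H2-D1 are close paralogs, so how their reads were assigned is uncertain.

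Of the genes of peptide supply, Tap1 and Psmb9 rose at 3w, while Psmb8, Tapbp and Tap2 were not called at that age. Tap1, a subunit of the peptide transporter into the endoplasmic reticulum, was measured at 3.18 and 2.75 CPM in KO and 1.597 and 1.38 CPM in control at 3w. For Tap1 at 1w, the values were 3.62 and 3.47 CPM in KO and 2.73 and 2.98 CPM in control. KO was above control at each age, control at 3w was lowest, and the effect was 0.98 ± 0.19 at 3w (adjusted p = 1.29e-05). Psmb9, an immunoproteasome subunit encoded head to head with Tap1, had 1.2005 and 1.22 CPM in KO and 0.525 and 0.495 CPM in control at 3w. At 1w, Psmb9 had 1.37 and 1.11 CPM in KO and 1.05 and 0.8199 CPM in control. Its KO libraries all lay above its control libraries, with 1.23 ± 0.31 at 3w (adjusted p = 0.000569), compared with 0.45 ± 0.26 at 1w (adjusted p = 0.166). The RefSeq promoter windows of Tap1 and Psmb9 overlap by 275 bases (chr17:34187306-34187580, GRCm38.p6), and their annotated exons share 212 bases. Psmb8, the immunoproteasome subunit that replaces Psmb5, had 10 and 8 reads in KO and 5 and 5 reads in control at 3w, and 24 and 26 reads in KO and 5 and 15 reads in control at 1w. It was called only in the average of both ages, at 1.00 ± 0.36 (adjusted p = 0.0159), and leaving out any of 4 libraries ended that call. Tapbp (tapasin), which holds empty class I molecules at the transporter, stood at 32.98 and 36.4 CPM in KO and 33.6 and 31.3 CPM in control at 3w. At 1w, Tapbp stood at 23.4 and 23 CPM in KO and 20.3 and 21.8 CPM in control. It was called over both ages at 0.11 ± 0.043 (adjusted p = 0.0236), and at neither age alone. That call was lost with DESeq2 and without any of 4 libraries. Tap2, the other transporter subunit, was measured at 8.26 and 7.29 CPM in KO and 7.99 and 8.16 CPM in control at 3w. For Tap2 at 1w, the values were 7.03 and 6.91 CPM in KO and 5.12 and 5.49 CPM in control. It was called higher at 1w (0.38 ± 0.11) and not at 3w (-0.053 ± 0.10). Nlrc5, the transactivator of class I genes, had 0.636 and 0.837 CPM in KO and 0.215 and 0.424 CPM in control at 3w. At 1w, Nlrc5 had 0.539 and 0.291 CPM in KO and 0.965 and 0.574 CPM in control. KO lay above control at 3w and below it at 1w, on 9 to 24 reads a library. Only the 3w effect was called (1.28 ± 0.42, adjusted p = 0.00926), and it lost its call with DESeq2, without KO replicate 2 and without control replicate 1 of 3w.

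The difference between the KO effects at 3w and at 1w was tested directly. It was called positive for 15 of the 40 tested members (37.5%), against 17.6% of all genes, and negative for 1, Tap2, against 17.9% of all genes. The members' median difference was 0.27 on the log2 scale. Ifit2 (1.22 ± 0.17, adjusted p = 1.62e-08), Ddx58 (0.79 ± 0.17), Parp14 (0.64 ± 0.14) and Parp9 (0.63 ± 0.15) were the members whose call held under every alternative tried. For Oas2, Rsad2, Xaf1, Sp100, Eif2ak2, Oasl2, Stat2 and Iigp1, the difference did not pass the test, with values between -0.44 for Oas2 and 0.17 for Xaf1. Without control replicate 2 of 1w, 9 of 43 members were called positive (20.9%), against 15.2% of all genes. DESeq2 called 5 of 39 positive (12.8%), which is near its share of all genes, 11.2%. The calls of Irf1, Irf7, Bst2 and Nlrc5 were lost with DESeq2 alone, and those of Irf9, Ifit1, Ifi27, Dtx3l, Gbp3, H2-K1 and Tap1 without 1 or more libraries.

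Each genotype was also compared between the ages. The labels give later injection days at 3w than at 1w, so age and day of injection cannot be told apart. In control, 11 members were higher and 12 lower at 3w than at 1w, against 34.9% and 36% of all genes. In KO, 18 were higher and 6 lower at 3w, against 33.2% and 34.6% of all genes. The median change with age was 0.34 in KO and -0.073 in control. Of the members, 10 were called higher at 3w in both genotypes, among them Oas2 (2.10 ± 0.29 in KO and 2.54 ± 0.49 in control), Rsad2 (1.43 ± 0.15 in KO and 1.39 ± 0.19 in control) and Iigp1 (2.09 ± 0.12 in KO and 2.03 ± 0.092 in control). Another 4 were called lower at 3w in both, with Xaf1 at -1.85 ± 0.12 in KO and -2.02 ± 0.15 in control. Then 7 were called lower at 3w in control without a call in KO, among them Ddx58 (0.0013 ± 0.11 in KO and -0.79 ± 0.13 in control), Ifit2 (-0.13 ± 0.11 in KO and -1.35 ± 0.12 in control) and Tap1 (-0.26 ± 0.16 in KO and -0.93 ± 0.19 in control). A further 7 were called higher at 3w in KO without a call in control, among them Irf7 (1.08 ± 0.17 in KO and 0.16 ± 0.20 in control) and H2-K1 (0.40 ± 0.058 in KO and 0.072 ± 0.063 in control). Irf1 was called higher with age in KO (0.41 ± 0.11) and lower in control (-0.28 ± 0.13), the second a call that nearly every alternative ended (adjusted p = 0.0667 with the replicate number as a block). A larger KO effect at 3w came with higher levels in older KO cells for some members, and with lower levels in older control cells for others.

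**Figure D4:**
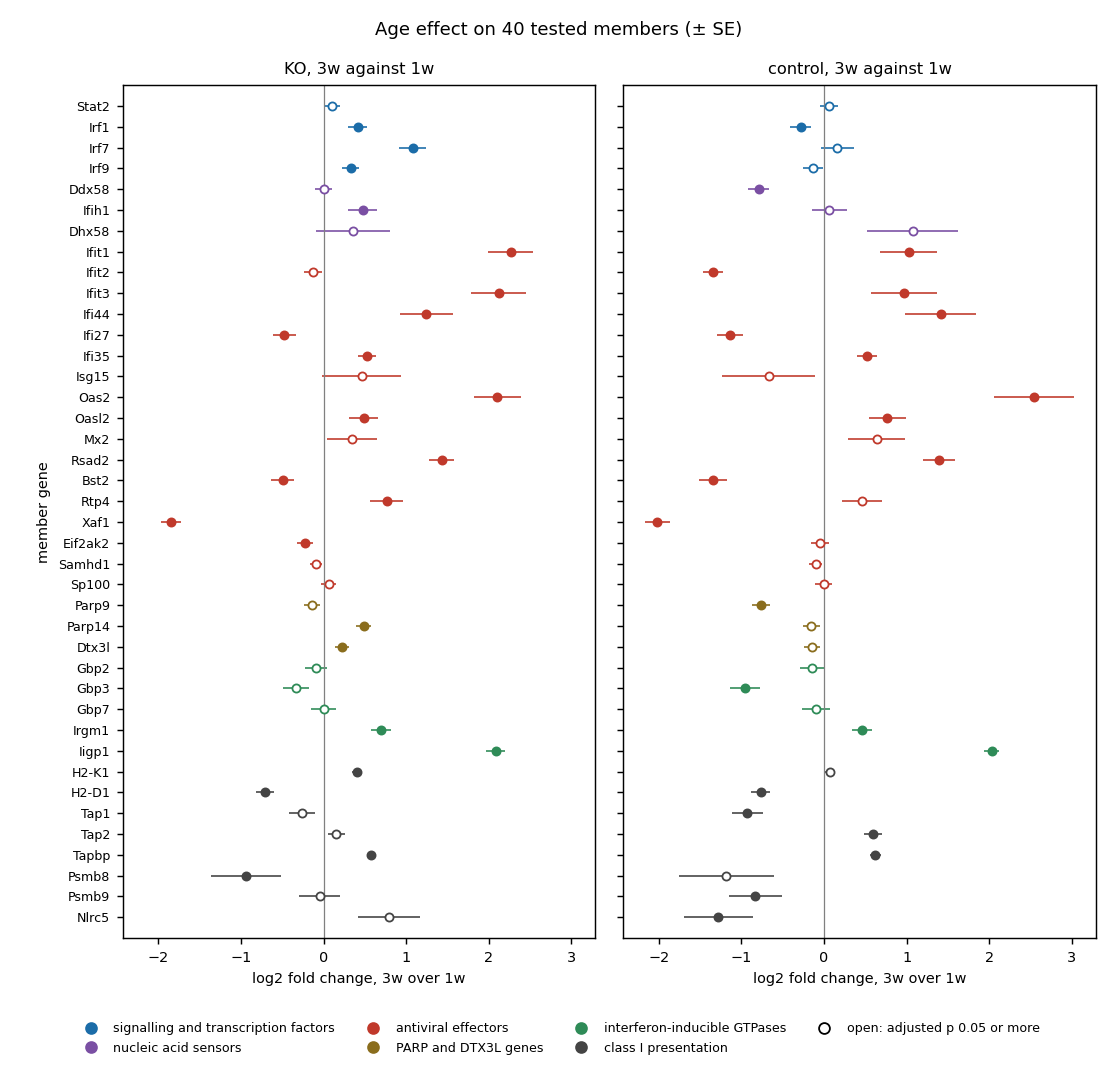
Log2 fold change of 3w over 1w with its SE for the 40 tested members, in KO (left) and control (right), coloured by role group; filled points have an adjusted p under 0.05. Ddx58, Ifit2 and Tap1 lie near 0 in KO and well below 0 in control, while Irf7 lies well above 0 in KO and near 0 in control.

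The genes around this response were looked at as lists. Of 21 interferon ligand genes, 17 were listed at 0 in every library and the other 4 had 12 reads together, 9 of them from Ifng, so none was tested and the source of any interferon is not given by these counts. Of 8 tested interferon receptors and JAK kinases, 1 rose in KO over both ages (12.5%, against 27.5% of all genes). Another 4 fell, against 25.3% of all genes, and the median log2 fold change was -0.11. The interferon lambda receptor Ifnlr1 (-0.53 ± 0.10), its shared partner Il10rb (-0.35 ± 0.034) and the kinase Jak2 (-0.28 ± 0.046) were the largest falls. Il10rb stood at 51.4 and 49.8 CPM in KO and 65.2 and 62.3 CPM in control at 3w. At 1w, Il10rb stood at 34.01 and 36.4 CPM in KO and 47.2 and 44.2 CPM in control. KO and control did not overlap at either age. Of 15 tested adaptors and upstream sensors, 8 rose (53.3%, against 27.5% of all genes) and none fell. The largest rises were those of the DNA sensor Cgas (1.49 ± 0.41) and the endosomal receptors Tlr7 (1.23 ± 0.17) and Tlr9 (1.08 ± 0.33). Cgas had 0 to 38 reads in a library and Tlr9 had 4 to 30. The call of Tlr9 was lost with DESeq2 and without KO replicate 2 of 3w. At 3w this list had 5 higher (33.3%, against 24.4% of all genes) and 2 lower (against 24.8%). At 1w it had 10 higher (66.7%, against 23% of all genes) and none lower (against 20%). Among 9 tested negative regulators, 4 rose (44.4%, against 27.5% of all genes) and 2 fell, against 25.3% of all genes. Their median log2 fold change was -0.037. At 3w, 4 rose and 3 fell, with a median of -0.14, against 24.4% and 24.8% of all genes. The largest changes called over both ages were the cytokine signalling inhibitor Socs3 at 0.98 ± 0.094, the RNA editor Adar at 0.56 ± 0.096 and Trim30a at 0.54 ± 0.14.

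A wider list held 73 other interferon-stimulated genes, of which 21 had too few reads to be tested. Of the 52 tested, 29 rose (55.8%, against 27.5% of all genes) and 4 fell (against 25.3%) over both ages. At 3w, 29 rose (55.8%, against 24.4% of all genes) and 3 fell (against 24.8%). At 1w, 18 rose (34.6%, against 23% of all genes) and 8 fell (against 20%). The medians were 0.44 over both ages, 0.55 at 3w and 0.28 at 1w. Oasl1 was measured at 0.706 and 0.767 CPM in KO and 0.119 and 0.141 CPM in control at 3w. For Oasl1 at 1w, the values were 0.382 and 0.159 CPM in KO and 0.126 and 0.191 CPM in control. KO and control overlapped at 1w, and the log2 fold change over both ages was 1.61 ± 0.39. Epsti1 (1.39 ± 0.30) and Ifi207 (1.13 ± 0.17) were the next largest. Among 13 tested other class I genes, 4 rose (30.8%, near the 27.5% of all genes) and 4 fell, against 25.3% of all genes. Those that rose include Rfxank, a subunit of the RFX promoter complex (0.70 ± 0.055), and the nonclassical heavy chains H2-T22 (0.64 ± 0.13) and H2-Q4 (0.54 ± 0.16). Those that fell were the proteasome activator subunits Psme1 (-0.28 ± 0.032) and Psme2 (-0.15 ± 0.065), the chaperone Canx (-0.14 ± 0.024) and the trimming peptidase Erap1 (-0.11 ± 0.045). The constitutive proteasome subunits that the immunoproteasome replaces moved in both directions, with Psmb5 at 0.30 ± 0.043, Psmb7 at -0.20 ± 0.029 and Psmb6 at -0.17 ± 0.027. Psmb6, the counterpart of Psmb9, had 112 and 107 CPM in KO and 131 and 132 CPM in control at 3w. At 1w, Psmb6 had 92.8 and 89.9 CPM in KO and 93.6 and 100.03 CPM in control. KO lay below control at each age.

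Markers of immune and stromal cells moved with KO in the same libraries. Over all genes, 24.4% rose and 24.8% fell at 3w, and 23% rose and 20% fell at 1w. Macrophage and myeloid markers, of which 16 of 18 were tested and Itgam was listed at 0, rose in 14 cases and fell in 1 at 3w, and rose in all 16 at 1w, with medians of 0.75 at 3w and 1.63 at 1w. Their summed level was 150.3 and 156 CPM in KO and 102 and 101 CPM in control at 3w. At 1w the sums were 185 and 179 CPM in KO and 56.8 and 56.7 CPM in control. KO lay above control at each age, by 1.51 times at 3w and 3.20 times at 1w. The most abundant were Lyz2 (0.63 ± 0.070 at 3w and 1.37 ± 0.080 at 1w) and Csf1r (0.65 ± 0.073 at 3w and 1.61 ± 0.073 at 1w). The difference between the KO effects at 3w and at 1w was called negative for 13 of these 16 markers and positive for none. Over all genes tested, this difference was called negative for 17.9% and positive for 17.6%. Among smooth muscle and pericyte markers, it was called positive for 7 of 8 and negative for none, with a median log2 of 1.06. Among the 9 tested fibroblast markers it was called positive for 4 and negative for 2. Erythroid markers had 3 of 4 positive and none negative, and endothelial markers had 4 of 12 positive and 3 negative. Epicardial markers had 5 of 6 negative and lymphocyte and NK markers 4 of 7 negative, with none positive in either list. Cardiomyocyte markers had 2 of 8 positive and 4 negative. Class II presentation genes, normally expressed by antigen-presenting cells, rose in 5 of 6 tested cases at 3w and at 1w, with H2-Aa at 1.18 ± 0.21 at 3w and 1.61 ± 0.26 at 1w and H2-Ab1 at 1.02 ± 0.21 at 3w and 1.45 ± 0.26 at 1w. H2-DMb1 had the largest change of the list over both ages, 2.22 ± 0.49, on few reads. Lymphocyte and NK markers summed to 0.953 and 0.941 CPM in KO and 1.10 and 0.883 CPM in control at 3w. They reached 6.81 and 7.68 CPM in KO and 1.80 and 2.05 CPM in control at 1w. Summed levels in KO were also 2.13 times those of control at 3w and 1.86 times at 1w for fibroblast markers. The ratios were 2.00 at 3w and 1.44 at 1w for smooth muscle and pericyte markers. Endothelial markers had ratios of 1.16 at 3w and 1.21 at 1w. Cardiomyocyte markers had ratios of 0.79 at 3w and 0.93 at 1w, and all 8 tested were called lower over both ages. Epicardial markers had 0.599 at 3w, where 5 of 6 were called lower, and 1.72 at 1w, where 5 were called higher. Erythroid markers had 0.404 at 1w, where 3 of 4 were called lower, and lay above control at 3w, where 2 were called higher. In bulk RNA, fewer or more cells of a type and less or more RNA per cell cannot be told apart, and the part of these cells in the members' results was not tested.

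**Figure D5:**
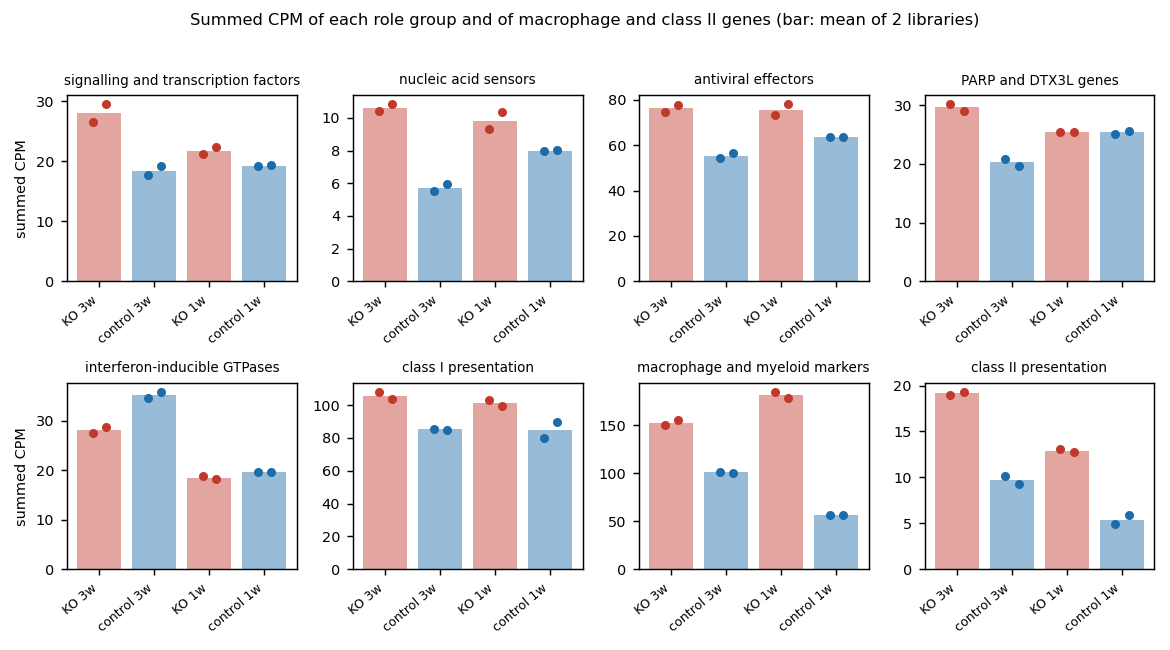
Summed TMM-scaled CPM of each of the 6 role groups, of the macrophage and myeloid markers and of the class II presentation genes, for KO (red) and control (blue) at 3w and then 1w; bars are means of 2 libraries and points are libraries. The KO excess is larger at 3w for the signalling factors, sensors, effectors and PARP genes and larger at 1w for the macrophage markers. The summed level of the GTPases is lower in KO, with Iigp1 the most abundant of them at 3w. Of the 5 GTPases tested, 3 were called higher and 1, Iigp1, lower over both ages.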

How the data were processed

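RNA sequencing of isolated mouse cardiomyocytes gave 1 deposited table of gene counts for 4 groups, each of 2 libraries. The authors' pipeline, per the submitters' processing notes, comprised FastQC, MultiQC, HISAT2 on the mm10 build, featureCounts and DESeq2. The annotation, strand setting and tool versions behind the deposited counts are unstated in those notes. According to the protocols in the labels, total RNA went into SMART and Nextera XT libraries. Gene symbols came from GENCODE M21.

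The deposited counts were filtered with filterByExpr of edgeR (minimum count 10, minimum total 15), which left 14665 genes. CPM are scaled by TMM factors of 0.759 to 1.23. Groups were compared by the robust quasi-likelihood test of edgeR, with all 4 groups in 1 model (4 residual degrees of freedom), with Benjamini-Hochberg adjustment over all genes tested and calls at an adjusted p under 0.05. SEs were derived from the F statistic. Library totals of 20818285 to 53671626 counts set the precision. Alternatives were RLE scaling, no filter, the DESeq2 Wald test, the replicate number as a block, leaving out mitochondrial counts, fitting only the groups compared, and leaving out each library in turn. Within an age, KO and control libraries of the same number share the injection day in the labels. The differences of replicate 1 less replicate 2 correlated between groups, across genes, at -0.0222 to 0.00825. Software versions were DESeq2 1.42.0, edgeR 4.0.16 and R 4.3.3.

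The members and lists were chosen with earlier results of these data known. Values in every library are given for the 2 members of a role group with the highest mean CPM and the 3 with the largest change over both ages. Of other lists, the 3 called genes with the largest change over both ages are named. None of the interferon ligands was tested, and Ifng, with the most reads, is named. Of the macrophage and myeloid markers, the 2 with the highest mean CPM are named. Values in every library of other members, the promoters shown and Oasl1, Psmb6 and Il10rb per library were chosen after their values were seen. One gene of the receptor and kinase list is not reported here and was left out of its counts.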

Additional observations from a re-analysis of the deposited data

Results flagged for a closer look

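The difference between the KO effects at 3w and at 1w passed the quasi-likelihood F-test of edgeR (Benjamini-Hochberg adjusted) for 16 members, which flags them for a closer look. On the log2 scale, the KO effect at 3w exceeded that at 1w by 2.07 for Nlrc5, 1.24 for Ifit1, 1.22 for Ifit2, 0.92 for Irf7, 0.85 for Bst2 and 0.79 for Ddx58. The excess was 0.70 for Irf1, 0.67 for Tap1, 0.66 for Ifi27, 0.64 for Parp14, 0.63 for Parp9 and 0.62 for Gbp3. Smaller values were found for Irf9 (0.46), Dtx3l (0.37) and H2-K1 (0.33). Tap2 had the opposite sign, -0.44. For Nlrc5, both KO libraries lay above both control libraries at 3w and below them at 1w, on at most 24 reads. Y-linked transcripts were low in KO and high in control at 3w and the reverse at 1w, so these differences cannot be told apart from one that follows those transcripts. The day of injection in the labels also differed between the ages, and it cannot be told apart from age.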

How the results depend on the processing

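No median changed sign under any alternative, and no called gene did where the alternative gave it an adjusted p. RLE scaling, no filter, mitochondrial counts left out and the replicate block kept every count of the members within 1.5 times. Medians were judged against the spread between replicates instead. By these limits, 18 counts or medians moved under the alternatives and 228 did not. When only the groups compared were fitted, 2 members were called lower at 1w, in place of 1. With the replicate block, 31 members were called higher over both ages, 28 at 3w and 9 at 1w, and of the calls of members only those of H2-D1 at each age and of Irf1 with age in control were lost. Without the filter, the share of all genes called higher was 16.8% over both ages, 14.2% at 3w, 14.8% at 1w and 9.02% in the difference of KO effects. The DESeq2 Wald test called 20 members higher over both ages, 5 positive and 0 negative in the difference of KO effects, and 2 lower with age in KO.

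Leaving out 1 library gave 26 to 31 members called higher over both ages, 23 to 29 at 3w and 7 to 12 at 1w, with 1 to 2 lower at 1w. The same step gave 9 to 13 positive and 0 to 1 negative differences of KO effects. Some of these counts include members without a call in the main fit. The median KO effect at 3w lay between 0.54 and 0.68 (lowest without KO replicate 2 of 3w) and the median change with age in KO between 0.27 and 0.36 (lowest without KO replicate 2 of 1w). The longer element, with CT after the core, was found in 8 members in place of 15. Of the calls in the main results, 19 of 31 over both ages, 20 of 29 at 3w, 3 of 10 at 1w and 4 of 15 positive differences held under every alternative. The cause was not tested. Usp18, Zbp1 and Mx1 did not pass the filter of the main fit, but were among the 43 members fitted without a filter.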
